A study of Mus musculus with 11 samples.

Results

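The 10 genes described here encode cytokines and receptor chains of the common gamma-chain family: the cytokines Il7 and Il15, the shared chain Il2rg, and the chains Il2rb, Il2ra, Il7r, Il15ra, Il4ra, Il21r and Il9r. They were chosen by name from 52550 genes in the expression table, with earlier results of these data known. All 10 passed the filter on low values that left 14419 genes for testing. RNA was sequenced from epidermal cells of flank skin of 8 weeks old female mice. huLangerin-DTA mice, in which the human langerin promoter drives diphtheria toxin subunit A so that Langerhans cells (LCs) are missing from birth (hereafter LC-/-), were compared with wild type (WT) littermates. Keratinocytes (KCs) were sorted as live MHC-II-, CD45-, langerin-, c-kit- cells and dendritic epidermal T cells (DETCs) as live MHC-II-, CD45+, langerin-, c-kit- cells. The DETC gate held no T cell marker, so it could also hold other CD45+ cells. There were 3 KC libraries from WT mice (W1, W2 and W3), 3 KC libraries from LC-/- mice (L1, L2 and L3), 3 DETC libraries from WT mice (W1 to W3) and 2 DETC libraries from LC-/- mice (L2 and L3), with 13491075 to 19750440 reads in genes per library. The study plots the libraries as separate animals. Neither it nor the labels say whether KC and DETC libraries with the same number came from the same mouse.

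In this family a private chain, which binds the ligand, pairs with the product of Il2rg. The receptors signal through the kinases Jak1 and Jak3 to STAT proteins, which for IL-2, IL-7 and IL-15 are chiefly Stat5a and Stat5b. IL-7 and IL-15 are survival and growth factors of T cells in epithelia, and KCs are a known source of both for the gamma-delta T cells of the epidermis. IL-15 is usually handed to the T cell while bound to Il15ra on the producing cell, and it signals there through Il2rb and Il2rg, which also serve IL-2.

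The labels of the libraries were checked first. Cd207, which encodes langerin, had 6 to 29 reads in the WT KC libraries and 0 in the 3 LC-/- KC libraries. It had 20 to 48 reads in the WT DETC libraries and 0 and 4 reads in the DETC libraries L2 and L3. The 23 DETC marker genes summed to 228888 to 268337 normalized counts (reads divided by a size factor of the library) in the DETC libraries and to 18.2 to 53.6 in the KC libraries. The 28 keratinocyte marker genes summed to 679707 to 734939 normalized counts in the KC libraries. They were not absent from the DETC libraries, where they stood at a median of 15.3%, 15.8% and 18.8% of their mean KC level of the same genotype in W1, W2 and W3, and at 26.0% and 16.4% in L2 and L3. Below, this median is called the keratinocyte share of a DETC library. Single markers spread widely around it, from 5.22% in L3 to 282% in W2, so levels derived from the share are rough. Marker genes of alpha-beta T cells and of dermal gamma-delta T cells that make IL-17 were also detected in the DETC libraries, with Cd8a between 378 and 2825 and Il17a between 199 and 501 normalized counts.

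The cytokine and receptor genes divided between the populations. Compared between the WT libraries, all 10 members differed between DETCs and KCs: 7 receptor chains (Il2rb, Il2rg, Il2ra, Il7r, Il21r, Il9r and Il4ra) were higher in DETCs, while Il7, Il15 and Il15ra were higher in KCs (limma on log2(normalized count + 1), Benjamini-Hochberg adjusted p under 0.05). Such differences were common between these populations, since 41.0% of all tested genes were called higher and 35.1% lower in DETCs. The calls of the 10 members held in each of the 18 alternative analyses. In bulk libraries, fewer cells of a type and less RNA per cell cannot be told apart.

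**Figure D1:**
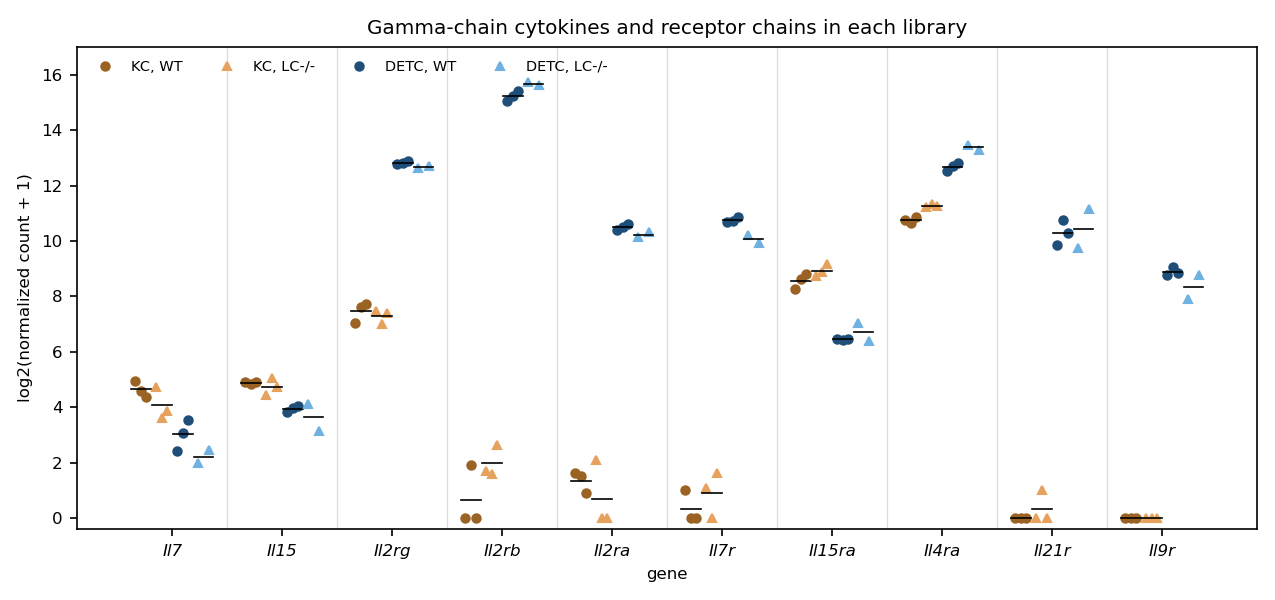
Level of each member in each of the 11 libraries, as log2(normalized count + 1); points are libraries, black bars are means of the group. Il2rb, Il2ra, Il7r, Il21r and Il9r lie at 5.3 normalized counts or below in the 6 KC libraries, whereas Il7, Il15 and Il15ra are higher in WT KCs than in WT DETCs.

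Il15 (ENSMUSG00000031712.10, chr8:82331632-82403222 of GRCm38, minus strand) had 28.7, 27.8 and 29.4 normalized counts in the WT KC libraries W1, W2 and W3, and 20.9, 32.6 and 25.2 in the LC-/- KC libraries L1, L2 and L3. The LC-/- libraries lay on both sides of the WT libraries and spread more widely. The genotype difference in KCs was -0.14 on the log2 scale (95% interval -0.61 to 0.32, adjusted p = 0.666, limma), and it turned to 0.00 without the LC-/- library L1. Each value rested on 19 to 34 reads, so differences inside that interval were not detectable at this depth.

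Il7 (ENSMUSG00000040329.14, chr3:7569994-7613760, minus strand) had 29.7, 23.2 and 19.9 normalized counts in WT KCs and 25.3, 11.2 and 13.7 in LC-/- KCs. L2 and L3 lay below all WT libraries, and L1 lay among them. The difference of -0.57 (95% interval -1.42 to 0.28) did not pass the test (adjusted p = 0.340, limma), with 11 to 29 reads per library. Neither cytokine therefore differed between genotypes in KCs beyond the spread of the libraries.

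Both cytokines were lower in the DETC libraries. Il15 stood at 13.1, 14.9 and 15.6 normalized counts in WT DETCs against 28.6 ± 0.784 (SD, n = 3) in WT KCs, a log2 difference of -0.94 (adjusted p = 0.00496, limma). Il7 stood at 4.4, 7.4 and 10.7 in WT DETCs against 24.3 ± 5.01 (SD, n = 3) in WT KCs, a log2 difference of -1.62 (adjusted p = 0.00218, limma). The keratinocyte share alone would give 30.4% to 34.6% of the Il15 level measured in the WT DETC libraries and 42.7% to 85.1% of the Il7 level. In L2 and L3 it would give 41.3% and 55.8% of the measured Il15, and 149% and 62.2% of the measured Il7, so in L2 more Il7 than was found. In the LC-/- DETC libraries Il15 stood at 16.5 and 7.7 and Il7 at 2.9 and 4.4 normalized counts, the latter from 3 and 4 reads. For Il15 the 2 LC-/- libraries enclosed the WT range, and the genotype difference of -0.32 (95% interval -1.32 to 0.67) had an adjusted p of 0.743. For Il7 the difference was -0.81 (95% interval -2.10 to 0.48, adjusted p = 0.482), and L3 overlapped the WT libraries.

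Il15ra (ENSMUSG00000023206.16, chr2:11705290-11734317, plus strand), the chain that presents IL-15, was the receptor chain with the opposite distribution. It had 307, 395 and 444 normalized counts in WT KCs and 425, 467 and 577 in LC-/- KCs. The LC-/- libraries L2 and L3 lay above all WT libraries, L1 overlapped them, and the difference of 0.36 (95% interval -0.09 to 0.82) did not pass the test (adjusted p = 0.270, limma). In DETCs it had 86.2, 85.0 and 87.5 normalized counts in WT and 130 and 81.8 in LC-/- libraries, so WT DETCs lay 2.12 below WT KCs on the log2 scale (adjusted p = 7.5e-07, limma). The keratinocyte share would give 67.9% to 82.2% of the level measured in the WT DETC libraries and 97.7% and 98.5% of that in L2 and L3. Given the spread of the single keratinocyte markers, these percentages do not fix how much Il15ra came from KCs. The higher value of the LC-/- library L2 stood beside the largest keratinocyte share. The genotype difference in DETCs, 0.26 (95% interval -0.28 to 0.79, adjusted p = 0.601), turned to -0.07 without L2.

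**Figure D2:**
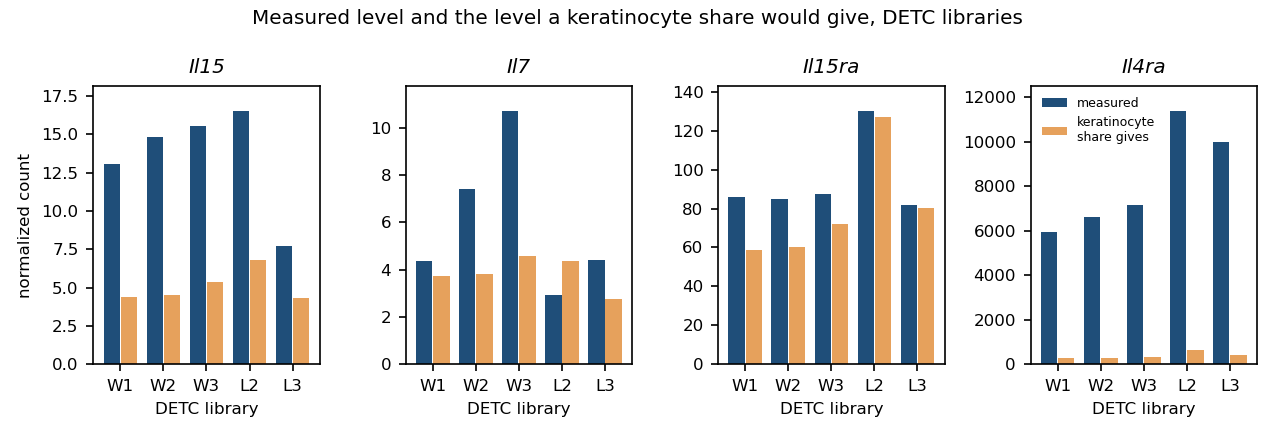
Normalized counts measured in the 5 DETC libraries (blue) and the level that the keratinocyte share of that library would give (orange), for Il15, Il7, Il15ra and Il4ra; each axis starts at 0. The orange bar nearly reaches the blue one for Il15ra in L2 and L3, at 97.7% and 98.5%, and is at most 5.67% for Il4ra.

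Il2rg (ENSMUSG00000031304.18, chrX:101264378-101268255, minus strand), the chain common to the family, had 7096, 7201 and 7521 normalized counts in WT DETCs and 6322 and 6617 in LC-/- DETCs. Both LC-/- libraries lay below all WT libraries, but the difference of -0.17 (95% interval -0.37 to 0.03) had an adjusted p of 0.337 (limma). Under quantile normalization it was -0.39 with an adjusted p of 0.0484. In KCs Il2rg was not at the floor: it had 131, 198 and 210 normalized counts in WT and 175, 128 and 168 in LC-/- libraries, a difference of -0.17 (95% interval -0.75 to 0.40, adjusted p = 0.674). These KC levels were 1.80% to 2.89% of the mean DETC level of the same genotype. The 23 DETC markers had a median of at most 0.0217% of theirs in any KC library, and Il2rb at most 0.009997%. The highest single marker stood at 0.797% in the KC library W1 and 0.876% in L3. WT DETCs exceeded WT KCs 41.1-fold, or 5.36 on the log2 scale.

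Il2rb (ENSMUSG00000068227.8, chr15:78479256-78495271, minus strand), the chain that IL-2 and IL-15 receptors share, had 33889, 38512 and 43101 normalized counts in WT DETCs. In LC-/- DETCs it had 54403 and 50709. Both LC-/- libraries lay above the 3 WT libraries, by 0.46 on the log2 scale (95% interval 0.11 to 0.80), but the adjusted p was 0.150 with limma and 0.108 with edgeR, against 0.00807 with DESeq2. Values without overlap in this direction were found for 21.3% of all tested genes. In the KC libraries Il2rb had 0, 3 and 0 reads in WT and 2, 2 and 5 reads in LC-/- libraries. From 3 reads against 122046 over the WT libraries, the DETC level was 41382 times the KC level (exact 95% counting interval 14160 to 200667, which covers counting error only).

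Il2ra (ENSMUSG00000026770.5, chr2:11642807-11693193, plus strand), the chain that raises the affinity for IL-2, had 1344, 1450.0 and 1564 normalized counts in WT DETCs and 1117 and 1275 in LC-/- DETCs. Both LC-/- libraries lay below the WT libraries, with a difference of -0.28 on the log2 scale (95% interval -0.52 to -0.04), with an adjusted p of 0.192 (limma). Values without overlap in this direction were found for 16.5% of all tested genes. Il2ra had 3 reads or fewer in each KC library, and 5 against 4597 reads over the WT libraries gave a ratio of 935 (exact 95% counting interval 400 to 2882). The gene lies 12.1 kb from Il15ra on chromosome 2, on the same strand, yet in WT libraries Il2ra was higher in DETCs and Il15ra higher in KCs.

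Il7r, which encodes the IL-7 receptor alpha chain and also serves TSLP, was the member called lower in LC-/- DETCs. The stretch before its RefSeq start is shown because the genotypes differed. The 164 bases (GRCm38.p6, chr15:9529877-9530040, minus strand) run 5′ to 3′ from the end of an exon of another annotated transcript of the gene (chr15:9530041-9530176 in GENCODE M21), so they are also part of the first intron of that transcript. Capitals mark the match to TTCNNNGAA, the letters that STAT proteins such as Stat5a bind.
Il7r: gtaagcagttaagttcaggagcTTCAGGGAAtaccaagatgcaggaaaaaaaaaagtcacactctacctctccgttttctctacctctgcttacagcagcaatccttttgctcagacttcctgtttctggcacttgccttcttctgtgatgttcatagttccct
The match lies 142 to 134 bases before the RefSeq start. Searched on both strands, these letters occurred in 7.02% of all 32851 promoter windows of 250 bases, and a match is a description of sequence, not of binding. Windows were held for 7 members (8 windows). TTCNNNGAA occurred in 1 of these members, and the STAT motif with 1 more base of spacing in 0, against 5.85% of all promoters. The forkhead letters TGTTTAC (3.17% of all promoters) occurred in that of Il21r. The Runx letters TGTGGT (14.0% of all promoters) occurred in those of Il21r, Il2rg and Il9r, where the Il21r match overlapped the forkhead match by 2 bases.

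Il7r (ENSMUSG00000003882.4, chr15:9505788-9530176, minus strand) had 1654, 1671 and 1866 normalized counts in the WT DETC libraries. In the LC-/- libraries L2 and L3 it had 1176 and 965. Both LC-/- libraries lay below all WT libraries, and the gene fell by 0.70 on the log2 scale, to 0.617 of the WT level (95% interval -0.96 to -0.44, adjusted p = 0.0230, limma). Of all tested genes, 0.430% were called lower in LC-/- DETCs and 3.13% higher (62 and 452 genes), a split that was 85 lower and 178 higher under quantile normalization. The adjusted p rose to 0.0742 without W2 and 0.0845 without W3, when 73 and 42 genes in all were still called, and it was 0.0427 without W1, 0.0465 without L2 and 0.0479 without L3. When L2 or L3 is left out, here and in the results that follow, the LC-/- DETC group is a single library that is assumed to vary like the WT libraries, so these p values are no test of how stable the LC-/- level is. It was 0.401 in a fit that took its spread from all 11 libraries, 0.129 after subtraction of the keratinocyte share and 0.180 with no mean-variance trend. In KCs the gene had 0 to 2 reads per library. From 1 read against 5460 over the WT libraries, the DETC level was 5554 times the KC level (exact 95% counting interval 996 to 219408).

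Marker genes of other T cells also differed between the DETC libraries. Ccr6, a chemokine receptor of IL-17-producing T cells, had 383, 396 and 602 normalized counts in WT and 223 and 149 in LC-/- DETCs. The groups did not overlap, and Ccr6 was called lower, by 1.30 on the log2 scale (adjusted p = 0.0327, limma). Il17rb, a receptor chain for IL-17 family cytokines, had 163, 115 and 194 in WT and 67.0 and 48.6 in LC-/- DETCs, and was called lower by 1.41 (adjusted p = 0.0333). Of the 19 tested genes of the dermal gamma-delta T17 list, 4 were called lower, among them Ccr6, Il17rb and 5830411N06Rik, and 1, Lgals3, higher, with a median difference of -0.73 against 0.02 over all tested genes. Without overlap 10 of the 19 were lower and 1 higher, against 16.5% and 21.3% of all tested genes. DESeq2 called 8 lower and 1 higher. With limma, 0.430% of all tested genes were called lower and 3.13% higher. The list summed to 17186 to 20887 normalized counts in WT and 19800 and 21272 in LC-/- DETCs. It also summed to 9208 to 10575 in the KC libraries, where 8 to 10 of the 19 genes were at 0, so the sum does not follow these cells alone. Il17a itself stood at 271, 501 and 453 in WT and 205 and 199 in LC-/- DETCs. Trdv4, the variable segment of the canonical DETC receptor, was also called lower, by 1.04 (adjusted p = 0.0279), and was the 1 of 23 DETC markers called. These 23 markers summed to 259292 to 268337 normalized counts in WT and to 228888 and 239483 in LC-/- DETCs, without overlap. Of the 23, 18 had a difference below 0, with a median of -0.15 against 0.02 over all tested genes. Among them 8 were lower and 2 higher without overlap, against 16.5% and 21.3% of all tested genes. edgeR called 1 of the 23 lower and DESeq2 4 lower and 1 higher. The marker calls were no firmer than that of Il7r: leaving out single libraries gave adjusted p values of 0.0592 to 0.0818 for Ccr6 and 0.0575 to 0.105 for Il17rb. For Trdv4 the call was kept without W2 (0.0442) and lost without L2, L3, W1 or W3 (0.0612 to 0.0918), for 5830411N06Rik it was lost without L2, L3 or W3 (0.0588 to 0.113), and for Lgals3 without L2, W2 or W3 (0.0662 to 0.117). The part of these cell types in the Il7r difference was not tested.

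Il9r (ENSMUSG00000020279.10, chr11:32187541-32200279, minus strand), the IL-9 receptor chain, had 434, 539 and 454 normalized counts in WT DETCs and 241 and 436 in LC-/- DETCs. L2 lay below all other DETC libraries and L3 among the WT libraries. The difference of -0.55 (95% interval -1.09 to -0.01) did not pass the test (adjusted p = 0.253, limma). It was -0.97 with L2 as the only LC-/- library (adjusted p = 0.0226, with the spread taken from the WT libraries) and -0.12 with L3 alone. No read of Il9r was found in the 6 KC libraries, so that WT DETCs were at least 169-fold higher than WT KCs, set against a floor of 3 reads per library.

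Il21r (ENSMUSG00000030745.9, chr7:125603429-125633570, plus strand), the IL-21 receptor chain, had a wide range among the DETC libraries. It had 929, 1729 and 1238 normalized counts in WT and 850 and 2288 in LC-/- DETCs. The LC-/- libraries were the lowest and the highest of the 5, and the genotype difference of 0.15 (95% interval -0.77 to 1.06) had an adjusted p of 0.881 (limma). The sign turned without L3 (-0.57) and without W1 (-0.07). Cd8a, which marks CD8 T cells, had 786, 2092 and 1716 normalized counts in WT and 378 and 2825 in LC-/- DETCs. The order of the 5 libraries by Il21r was the order by Cd8a. Of the 11 alpha-beta T cell markers 0 were called by limma, edgeR or DESeq2 and 0 had an unadjusted p under 0.05 with limma, none was at 0 in DETCs, and their sum ran from 14737 to 18006 in WT and was 10827 and 21669 in L2 and L3. Their part in the spread of Il21r was not tested. In KCs Il21r had 0 reads in the WT libraries and 1 read in L2, so WT DETCs were at least 461-fold higher, against the floor of 3 reads per library.

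**Figure D3:**
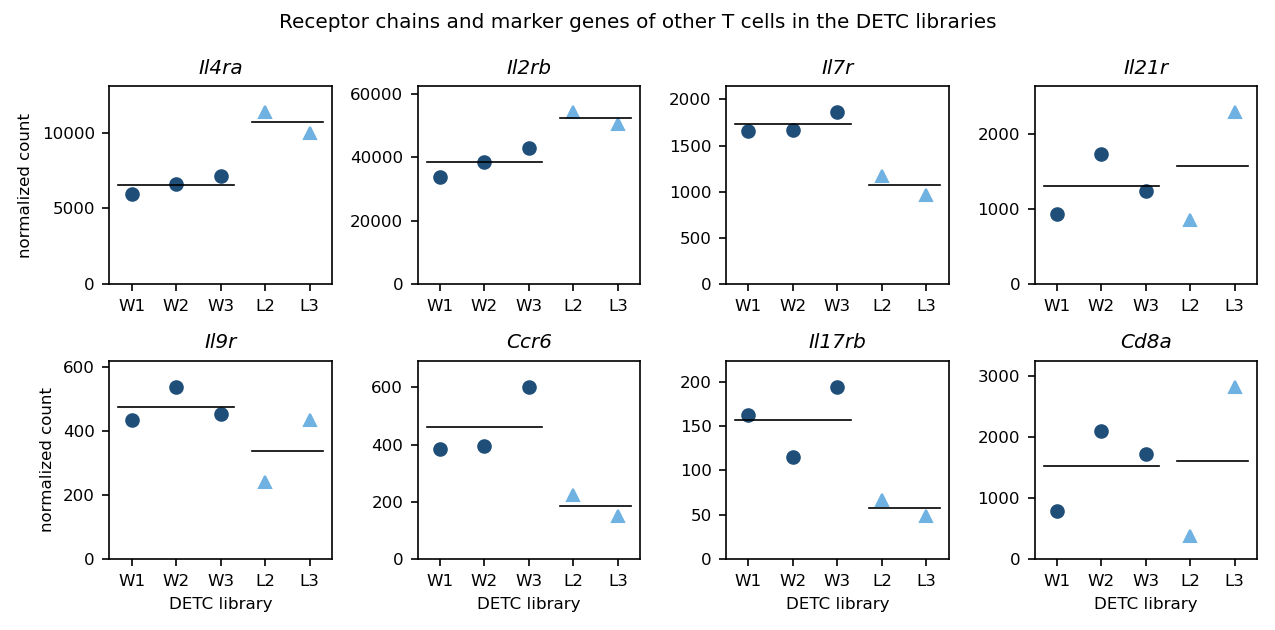
Normalized counts of 5 receptor chains and of Ccr6, Il17rb and Cd8a in the DETC libraries of WT (W1 to W3, circles) and LC-/- mice (L2 and L3, triangles); lines are group means and each axis starts at 0. Il7r, Ccr6 and Il17rb are lower in both LC-/- libraries, Il4ra and Il2rb are higher in both, and Il21r ranks the libraries as Cd8a does, from 850 in L2 to 2288 in L3.

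Il4ra, the alpha chain that IL-4 receptors share with IL-13 receptors, was called higher in LC-/- mice in both populations. The start of its promoter is shown for the same reason as the stretch of Il7r, from 250 bases before the RefSeq start to the last base before the first annotated exon (GRCm38.p6, chr7:125552021-125552119, plus strand, 99 bases), and it holds none of the 4 motifs searched.
Il4ra: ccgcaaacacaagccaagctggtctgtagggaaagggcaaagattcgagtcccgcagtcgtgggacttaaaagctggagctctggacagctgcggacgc
In KCs Il4ra (ENSMUSG00000030748.9, chr7:125552120-125579474, plus strand) had 1709, 1623 and 1850 normalized counts in WT libraries. It had 2415, 2587 and 2444 in LC-/- libraries. The 3 LC-/- libraries lay above the 3 WT libraries, and the gene rose 1.44-fold, or 0.52 on the log2 scale (95% interval 0.37 to 0.67, adjusted p = 0.0198, limma). It was the member called in KCs, where 5.37% of all tested genes were called higher, 1.85% were called lower, and 16.6% were higher without overlap. The adjusted p rose to 0.0809 without L1, 0.0695 without L3, 0.0791 without W1 and 0.0778 without W2. In each of those fits no more than 16 genes in all were called, and the difference stayed between 0.48 and 0.54.

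In DETCs Il4ra had 5921, 6619 and 7160 normalized counts in WT libraries and 11364 and 9991 in LC-/- libraries. Both LC-/- libraries lay above the WT libraries, and the gene rose 1.63-fold, or 0.70 on the log2 scale (95% interval 0.44 to 0.96, adjusted p = 0.0235, limma). The adjusted p was 0.129 without L2, 0.0827 without W2 and 0.0678 without W3, and it was also 0.129 after subtraction of the keratinocyte share, when the difference was 0.69, and 0.180 with no mean-variance trend. The keratinocyte share would give 4.09% to 5.67% of the measured Il4ra. The 8 markers of type 2 innate lymphoid cells summed to 25263 to 27611 normalized counts in WT and to 37954 and 37968 in LC-/- DETCs, with 1 of 8, Areg, called higher (adjusted p = 0.0323, limma, and 0.106 to 0.195 without L2, L3, W2 or W3). Of the 8 markers, 5 lay higher and 3 lower in LC-/- DETCs, with a median of 0.18 against 0.02 over all tested genes. Without overlap 2 were higher and 0 lower, against 21.3% and 16.5% of all tested genes. In the KC libraries the same 8 summed to 7439 to 8803 normalized counts, so the sum does not follow these cells alone. The part of type 2 innate lymphoid cells in the Il4ra difference was not tested. The genotype difference in DETCs exceeded that in KCs by 0.18 (95% interval -0.11 to 0.47), with an adjusted p of 0.696 in the interaction test. WT DETCs had 3.79 times the WT KC level. Il21r starts 24.0 kb downstream of Il4ra, and in DETCs the genotypes were separated for Il4ra and overlapped for Il21r.

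**Figure D4:**
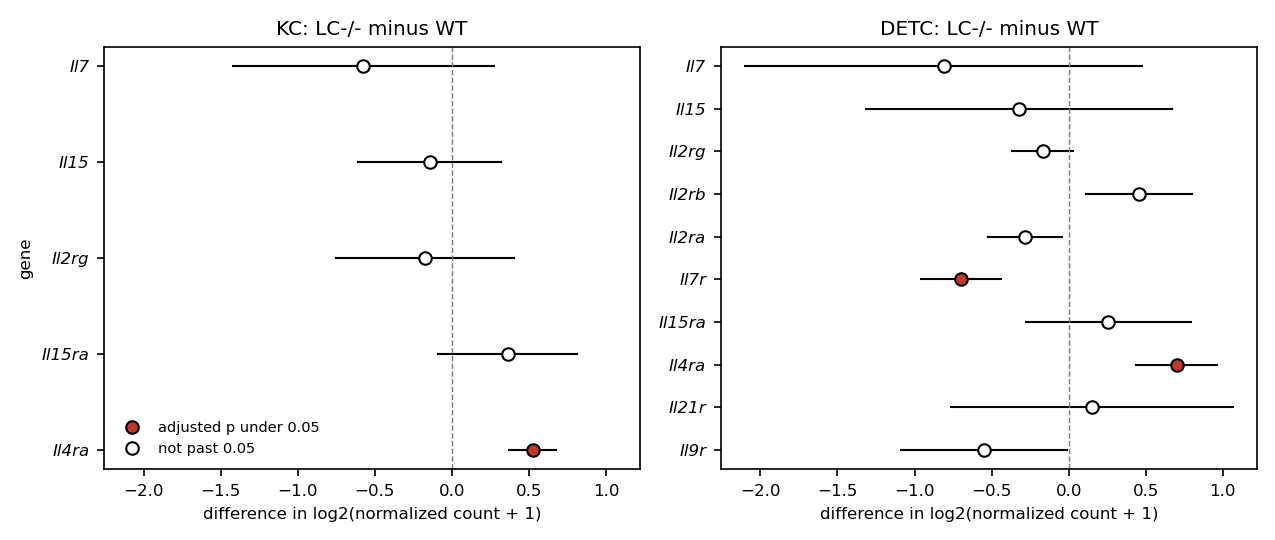
Difference between LC-/- and WT libraries in log2(normalized count + 1), with 95% intervals, in KCs (left, 5 members with more than 3 reads in a library of each group) and DETCs (right, 10 members); filled points passed an adjusted p of 0.05. Il4ra is filled in both panels, at 0.52 and 0.70, and Il7r in DETCs, at -0.70.

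Across the family, 1 of 10 members was called in KCs, where 5.37% of all tested genes were called higher and 1.85% lower. In DETCs 1 member was called higher and 1 lower, against 3.13% and 0.430% of all tested genes. For the 5 members above the floor in KCs, the interaction of genotype and population was called for 0 at an adjusted p under 0.05. This held for limma, edgeR and, for the 3 members it gave a value, DESeq2. With limma 0.798% of all tested genes were called. None of the 5 had an unadjusted p under 0.05 with limma, where 1052 of the 14419 tested genes lay higher and 582 lower. The interaction differences were -0.24 for Il7, -0.18 for Il15, 0.01 for Il2rg, -0.10 for Il15ra and 0.18 for Il4ra. With Il2rb, Il2ra, Il7r, Il21r and Il9r at or near 0 reads in KCs, no interaction was read for them.

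Levels of different genes were compared per kb of exon, since longer transcripts give more reads. In WT DETCs the order was Il2rb with 8981 ± 1074 normalized counts per kb (SD, n = 3), Il2rg with 3047 ± 92.7, Il4ra with 1094 ± 103, Il21r with 391 ± 121, Il7r with 371 ± 25.3, Il2ra with 254 ± 19.2 and Il9r with 96.2 ± 11.2. Il15ra with 19.4 ± 0.284, Il15 with 6.41 ± 0.561 and Il7 with 1.32 ± 0.559 came last. Of the neighbours in this order, the libraries of Il21r and Il7r overlapped, and the others did not. In LC-/- DETCs the order of the means was the same, but there Il7r, at 230 ± 31.9 (SD, n = 2), overlapped Il2ra, at 209 ± 19.6. In WT KCs Il4ra led with 288 ± 19.1 per kb (SD, n = 3), followed by Il15ra with 86.0 ± 15.6 and Il2rg with 75.2 ± 17.8, which overlapped each other, then Il15 with 12.7 ± 0.347 and Il7 with 4.28 ± 0.884.

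**Figure D5:**
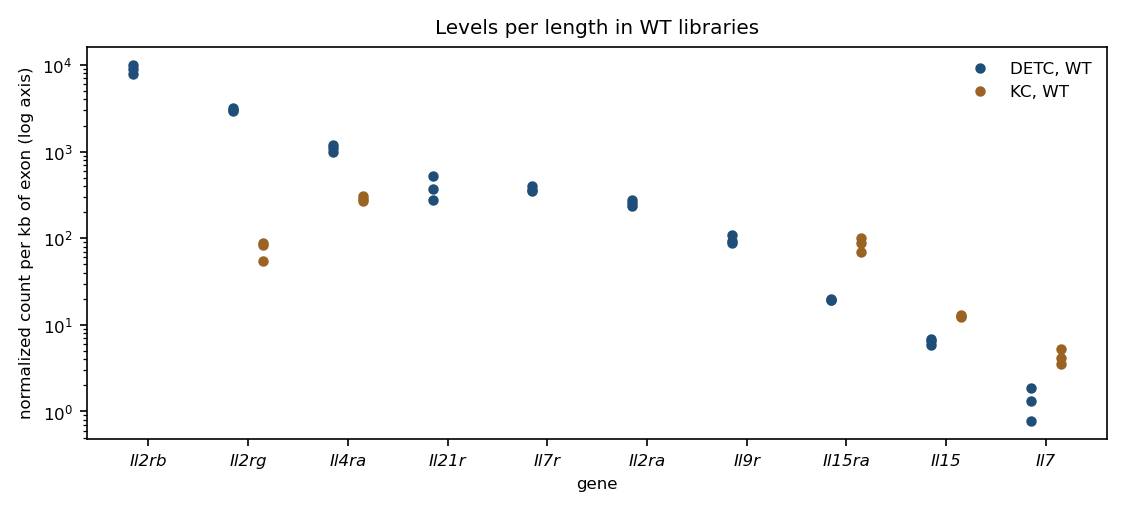
Normalized counts per kb of exon in the WT libraries on a log axis, one point per library, for DETCs (blue) and KCs (brown), with members at 3 reads or fewer in all WT KC libraries left out for KCs. In DETCs the means run from 8981 for Il2rb to 1.32 for Il7, and in KCs from 288 for Il4ra to 4.28 for Il7.

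The genes whose levels followed Il7r most closely over the 11 libraries were Xcl1, Cd244a, Itgae, Klf12 and Rab37, with a Pearson's r of 0.998 each. Such likeness was shared by many genes, since 548 had an r over 0.99, and the points fall into the KC and DETC libraries. Xcl1 and Itgae were among the DETC markers. Unlike Il7r, none of these 5 was called between genotypes in DETCs, where their differences ran from -0.29 (Cd244a, adjusted p = 0.129) to 0.03 (Itgae, adjusted p = 0.932). The closest to Il15 included Rasip1, at an r of 0.988, Lpin3, Ptk6 and Psmb5, at 0.978, and 0 genes had an r over 0.99.

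Among other ligands and partner chains of the family, 5 of 9 genes were tested. Tslp, an epithelial cytokine that binds Il7r together with Crlf2, had 172, 281 and 284 normalized counts in WT KCs and 739, 370 and 662 in LC-/- KCs. The LC-/- libraries lay above the WT libraries, with a difference of 1.24 (95% interval 0.38 to 2.10) and an adjusted p of 0.0950 with limma against 0.0033 with edgeR and 0.00799 with DESeq2. In the DETC libraries Tslp had 13.1, 16.5 and 9.7 in WT and 81.6 and 64.1 in LC-/-, and it was called higher by 2.41 (adjusted p = 0.0168, limma, and 0.102 without L2 and 0.0626 without W3). The keratinocyte share would give 37.6 to 46.2 and 153 and 97.1 normalized counts, more than was measured in each of these libraries. Crlf2 had 523 to 590 normalized counts in WT DETCs and 496 and 514 in LC-/- DETCs, a difference of -0.13 (95% interval -0.36 to 0.11, adjusted p = 0.559), and lay 3.58 above WT KCs on the log2 scale. The other tested genes were Il2, Il13 and Il13ra1, and none of them was called between genotypes with limma. Of the 5 tested genes in DETCs, DESeq2 called 2 higher and 0 lower, and edgeR 1 higher and 0 lower. Il13, whose product uses Il4ra, had 1642, 2389 and 2167 normalized counts in WT and 2803 and 3545 in LC-/- DETCs (difference 0.63, adjusted p = 0.0902).

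The kinases that the receptors use were detected in both populations. Jak3, which binds the common gamma chain, had 1466 to 1720 normalized counts in WT DETCs and 1353 and 1593 in LC-/- DETCs, and was 4.51 higher on the log2 scale in WT DETCs than in WT KCs. Jak1 had 16197 to 20251 in WT DETCs and 23640 and 23080 in LC-/- DETCs (difference 0.32, adjusted p = 0.229). Stat5a and Stat5b, the main STATs of IL-2, IL-7 and IL-15, differed between DETC genotypes by -0.03 (adjusted p = 0.925) and -0.04 (adjusted p = 0.875). Of the 9 kinase and STAT genes, Stat3 was called higher in both populations, by 0.39 in KCs (adjusted p = 0.0228) and 0.75 in DETCs (adjusted p = 0.0168), and Jak2 in KCs, by 0.78 (adjusted p = 0.0428), while 0 were called lower with limma. Of all tested genes, 5.37% were called higher in KCs and 3.13% in DETCs. At an unadjusted p under 0.05, 1 of the 9 was lower in each population, Tyk2 in KCs and Stat6 in DETCs, and DESeq2 called both. The Stat3 call in KCs was lost under quantile normalization (0.17, adjusted p = 0.140) and without L1, L3, W1, W2 or W3 (adjusted p of 0.0593 to 0.0915), as was that of Jak2 (0.0666 to 0.135). In DETCs the Stat3 call was lost without L2, W2 or W3 (0.0606 to 0.0961).

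Of the 12 tested feedback inhibitors, Ptpn6, a phosphatase that dampens cytokine and antigen receptor signals, was called lower in both populations, by 0.49 in KCs (adjusted p = 0.0420) and 0.77 in DETCs (adjusted p = 0.0136). Ptpn11 was called higher in KCs, by 0.35 (adjusted p = 0.0193). For comparison, the limma share over the 14419 tested genes was 5.37% (higher) and 1.85% (lower) in KCs. In DETCs these shares were 3.13% and 0.430%. The Ptpn6 call was lost in KCs without L1, L3, W1, W2 or W3 (0.0924 to 0.139) and in DETCs without L2 or W3 (0.0685 and 0.0626), and that of Ptpn11 without L1, L3, W1 or W2 (0.0688 to 0.0806). Cish, a STAT5 target, stood at 2312 to 2726 normalized counts in WT DETCs and 2178 and 2348 in LC-/- DETCs (difference -0.17, adjusted p = 0.389). Socs1, Socs2 and Socs3 were not called in either population with limma, while DESeq2 called Socs1 in KCs and Socs3 in both.

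Among the 20 survival and growth targets of IL-2, IL-7 and IL-15 signalling, the 1 gene called in DETCs by limma was Prf1, which encodes perforin. It had 5876, 6104 and 5743 normalized counts in WT and 4056 and 3480 in LC-/- DETCs, and fell by 0.65 on the log2 scale (adjusted p = 0.0189, limma). The call was lost without L2, L3, W2 or W3 (0.0510 to 0.0761). Bcl2, the survival factor maintained by IL-7 and IL-15, had 3880.5, 2712 and 3038 in WT and 2777 and 2562 in LC-/- DETCs. The groups overlapped, with a difference of -0.25 (95% interval -0.59 to 0.09, adjusted p = 0.401). In KCs Bcl2 was called lower, by 0.40 (adjusted p = 0.0499), and Pim1 higher, by 0.43 (adjusted p = 0.0381), and both calls were lost when each of the 6 libraries was left out in turn (0.0806 to 0.157 and 0.0626 to 0.118). The median difference of the list was 0.07 in DETCs, against 0.02 over all tested genes. Of all tested genes, 0.430% were called lower in DETCs, while 5.37% were called higher and 1.85% lower in KCs. In DETCs DESeq2 called 1 of the 20 higher and 1 lower, and edgeR 0 higher and 1 lower. In KCs DESeq2 and edgeR each called 2 higher and 2 lower.

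Of 11 tested transcription factors known to act on Il7r, Foxo1, an activator of Il7r in T cells, was called higher in LC-/- DETCs while Il7r was called lower. Foxo1 had 4971, 5668 and 5766 normalized counts in WT and 13465 and 10616 in LC-/- DETCs. Both LC-/- libraries lay above all WT libraries, by 1.13 on the log2 scale (95% interval 0.84 to 1.42, adjusted p = 0.0105, limma). In KCs it had 1741 to 1884 in WT and 1746 to 1793 in LC-/- libraries, a difference of -0.05 (adjusted p = 0.489). The adjusted p in DETCs was 0.0255, 0.0442 and 0.0479 without W1, W2 and W3. It was 0.0465 and 0.00996 without L2 and L3, when the LC-/- group was 1 library. The other 10 were not called with limma, and 3.13% of all tested genes were called higher in LC-/- DETCs. DESeq2 called 2 of the 11 higher in DETCs and 1 in KCs. edgeR called 1 higher in each population, and both called 0 lower.

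Of the 11 genes tied to IL-15 induction, Rela, Nfkb1 and Relb, which encode NF-kB subunits, were called higher in LC-/- KCs, by 0.78 (adjusted p = 0.0193), 0.67 (adjusted p = 0.0314) and 0.46 (adjusted p = 0.0385). Of all tested genes, 5.37% were called higher in KCs and 3.13% in DETCs. Without single libraries, the call of Rela was lost for L1, L3, W1 or W2 (0.0669 to 0.0806), that of Nfkb1 for each but W3 (0.0585 to 0.113) and that of Relb for each (0.0583 to 0.118). Il15 itself differed by -0.14 in the same libraries. Ifnar1 was called higher in LC-/- DETCs, by 0.41 (adjusted p = 0.0340, lost without L2, L3, W2 or W3 at 0.0757 to 0.187), and 0 of the 11 were called lower in either population by limma, edgeR or DESeq2, with 1, Irf2 in DETCs, lower at an unadjusted p under 0.05.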

How the data were processed

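Poly-A RNA of sorted KCs and DETCs was sequenced as paired 75 base reads. Reads were trimmed by the authors (cutadapt), mapped to GRCm38 (hisat2) and assigned to genes (featureCounts). The deposited signal of a gene is its read count divided by the size factor of the library, obtained by the median-of-ratios method. Whether strand was used is not given in the sources used here, so reads of overlapping antisense genes may be included. Whole reads were recovered from the step between low values: 100% of values lay within 0.01 of a whole read. Of the 52550 identifiers, 52403 matched a symbol and exon length in GENCODE mouse release M21.

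Genes with a CPM above 1 in at least 2 libraries were tested with limma 3.58.1 (R 4.3.3) on log2(value + 1), with a mean-variance trend and Benjamini-Hochberg adjustment over all 14419 genes, and called at an adjusted p under 0.05. LC-/- was compared with WT within KCs and within DETCs, WT DETCs with WT KCs, and the interaction over 11 libraries. Fold changes on this scale understate those of low genes. edgeR 4.0.16 and DESeq2 1.42.0 on recovered reads, other filters, pseudocounts, scalings and libraries left out were alternatives. The model code was tested on simulated data. The keratinocyte share is the median, over 28 keratinocyte markers, of a DETC library's level relative to the KC mean of its genotype. Promoters came from RefSeq (GRCm38.p6).

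All 10 members are given, list genes called between genotypes are named (at most 6 per list and comparison), and Jak1, Jak3, Stat5a, Stat5b, Tslp and Crlf2 are named whatever their values. Cish, Socs1, Socs2, Socs3, Il13, Tyk2, Stat6, Irf2 and the marker genes were named after their values were seen. Some genes that these rules would name are not reported here. The members and lists were chosen with earlier results of these data known. Replicates of a group differed beyond sampling noise, with 7.74 to 23.1 as the ratio of chi-square to its degrees of freedom.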

Additional observations from a re-analysis of the deposited data

Results flagged for a closer look

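For 3 genes of the pathway lists the difference between genotypes was not the same in DETCs and KCs by the interaction test of limma over 11 libraries, in which 0.798% of all tested genes were called. For Foxo1 the difference in DETCs exceeded that in KCs by 1.18 on the log2 scale (95% interval 0.88 to 1.48, adjusted p = 0.00320), with 1.13 in DETCs and -0.05 in KCs, and the call was kept in each of 21 alternative analyses. For Ptpn11 it was -0.68 (95% interval -0.92 to -0.44, adjusted p = 0.0146), with 2241, 2193 and 2298.5 normalized counts in WT and 2954, 2788 and 2851 in LC-/- KCs against 5652, 4984 and 5836 in WT and 4446 and 4278 in LC-/- DETCs. The call was lost without the DETC library L2 (adjusted p = 0.0529), the KC library L1 (0.0508) or the KC library W2 (0.0563), and was 0.0955 with a replicate block. For Socs3, named after its values were seen, it was 0.83 (95% interval 0.46 to 1.20, adjusted p = 0.0473), with -0.47 in KCs and 0.36 in DETCs, neither of them called. That call was kept in 6 of 21 alternative analyses, and leaving out libraries one at a time gave adjusted p values up to 0.156. None of the 5 members above the floor in KCs was called in this test by limma.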

How the results depend on the processing

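With limma, 1042 genes differed between genotypes in KCs, 514 in DETCs and 115 in the interaction. In KCs the count was 1752 with DESeq2, 1783 with edgeR, 1740 for genes with a mean of at least 10, 1617 with no filter, 633 under quantile normalization and 5 to 721 without single libraries, with 0 or 1 member called. In DETCs it was 1079 with DESeq2, 959 in the fit over all 11 libraries (1 member), 263 under quantile normalization and 35 to 590 without single libraries, with 0 to 3 members called. It was 0, members included, without a mean-variance trend (where 1554 genes lay higher and 853 lower with an unadjusted p below 0.05) and after subtraction of the keratinocyte share (1124 and 1213). The interaction gave 312 genes with DESeq2, 353 after subtraction (1 member, Il15ra, -3.30, adjusted p = 0.00651), 22 without a trend and 32 to 138 without single libraries.

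Title numbers did not establish pairs (correlations of deviations -0.05 to 0.14), and a replicate block gave 18 interaction calls and turned Il7 to 0.087.

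After subtraction, the sign turned for Il15ra in DETCs (-2.94). Values below 0 after subtraction were set to 0. The Il15ra difference rests on 15.6 to 27.7 normalized counts left in WT and 2.97 and 1.26 in L2 and L3. Tslp lay below its share in each DETC library, so all were set to 0 and its difference of 0.00 was fixed beforehand. For the interaction, signs turned for Il7 with pseudocount 8 (0.022), and for Il2rg with pseudocount 8 (-0.00024) and quantile normalization (-0.30). Without single libraries, differences that turned ran from -0.31 to 0.0019 for Il15 in KCs, and in DETCs from -0.82 to 0.18 for Il15, -0.075 to 0.59 for Il15ra, -0.57 to 0.86 for Il21r, -0.21 to 0.023 for Jak3, -0.086 to 0.067 for Stat5a and -0.17 to 0.089 for Stat5b. For the interaction they ran from -0.68 to 0.32 for Il15, -0.44 to 0.23 for Il15ra, -0.13 to 0.22 for Il2rg and -0.53 to 0.087 for Il7. The causes were not tested. The median of all genes between WT DETCs and WT KCs moved from 0.07 to -0.24 under quantile normalization, and the 10 members kept their directions. Il7 and Il15, with 34 reads or fewer per library, are limited by depth.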
